A study of Mus musculus with 5 samples.

Results

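Osteopontin, the secreted glycoprotein encoded by Spp1, and 8 genes for its receptors (Cd44, Itgav, Itgb1, Itgb3, Itgb5, Itga4, Itga5 and Itga9) were followed through single-cell RNA libraries of mouse mammary tumors. The 9 genes were taken by symbol from the 31053 genes counted in every tumor, and all 9 were present. The tumors came from MMTV-PyMT mice of the FVB/N strain, whose mammary epithelium expresses polyoma middle T under the promoter of a mouse mammary tumor virus. Every group carried this transgene. Mice were 7 weeks old when treatment began and received 5 mg/kg of either the VEGF-A blocking antibody B20-4.1.1 or isotype IgG2a, 2 times per week for 6 weeks. Viable (DAPI-) cells of 15 tumors were profiled as 5 pools of 3 tumors, each tumor marked by its own multiplexing oligonucleotides, 6 tumors in 2 pools for isotype and 9 tumors in 3 pools for B20-4.1.1. Each pool held 1 treatment, so pool and treatment cannot be told apart. Whether each tumor came from a separate mouse is not given, and p-values over tumors measure the spread between these tumors.

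Osteopontin is a matrix and cytokine-like protein that many carcinomas secrete, and it is also made by some macrophages. It signals through heterodimeric integrins, each built of an alpha and a beta subunit, and through CD44, the hyaluronan receptor. The integrins αvβ1, αvβ3, αvβ5 and α5β1 bind its Arg-Gly-Asp (RGD) motif, and α4β1 and α9β1 bind a second motif beside it. Hypoxia is one of several conditions that have been linked to osteopontin in tumors.

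Both receptor-binding motifs lie in exon 7 of the 8 exons of the Spp1 transcript used here, at chr5:104439454-104439528 on the plus strand of GRCm38. The coding sequence of this stretch, from GENCODE release M21, is shown because it sets which receptor genes belong together in what follows. The capitals mark the 3 codons of the RGD motif and, directly after them, the 7 codons of the motif for α4β1 and α9β1.
Spp1, coding strand: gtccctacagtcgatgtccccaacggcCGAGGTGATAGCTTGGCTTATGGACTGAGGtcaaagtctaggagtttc
The RGD codons were found in 6 of the 7 coding transcripts annotated for Spp1. The libraries count 3′ ends and do not tell these transcripts apart. The Spp1 gene spans chr5:104435118-104441050 and the genes of the receptors lie on chromosomes 2 (Cd44, Itgav and Itga4), 8 (Itgb1), 9 (Itga9), 11 (Itgb3), 15 (Itga5) and 16 (Itgb5).

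Total gene counts per tumor ranged from 4014509 to 23726246 unique molecular identifiers (UMIs, each 1 captured transcript molecule). Of 30340 deposited cells, 19533 were kept, 10630 from isotype and 8903 from B20-4.1.1 tumors. Clusters were named from marker genes and gave 12586 epithelial-like, 1418 macrophage-like and 2928 T-like cells. The 9 genes and 80 further genes of the osteopontin pathway were left out of the clustering. In 3 B20-4.1.1 tumors (pool 1 tumor 3, pool 2 tumor 1 and pool 2 tumor 3) T-like cells were 59.5%, 68.3% and 67.3% of the cells, against 3.01% to 23.8% in the other 12, and these 3 tumors held only 20, 21 and 23 macrophage-like cells. Levels below are UMIs per 10000 UMIs of the class in a tumor. Shares of cells with a UMI are given after each cell had been thinned to 2500 UMIs, so that depth does not set them.

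Spp1 and most of the receptor genes differed in level between the 3 classes, while Itgb1 was close to level. Of these classes Spp1 was highest in epithelial-like cells, with 127 ± 46.1 UMIs per 10000 (SD, n = 15 tumors) against 16.02 ± 11.1 for macrophage-like cells and 9.76 ± 7.67 for T-like cells. Epithelial-like cells were 64.4% of the cells and held 94.0% of all Spp1 UMIs. Of the receptor genes, Itgb5, Itga4, Itga5, Itga9, Cd44 and Itgav were higher in macrophage-like than in epithelial-like cells in 15 of 15 tumors. Itgb3, the partner of αv in the classical vitronectin receptor, went the other way. These comparisons used the exact two-sided sign-flip permutation test on log2 levels within tumors, adjusted over 27 comparisons (9 genes and 3 pairs of classes). With 15 tumors the smallest p it can give is 6.1e-05, which adjusts to 0.00011. The sign-flip test, here and for ratios and states below, treats tumors as independent although 3 shared each library. It was not run with pools as units.

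Itga4, Itga5 and Itga9, which encode α subunits that pair with β1, had few UMIs in epithelial-like cells. Itga4 had 28 UMIs in all epithelial-like cells, 0 to 4 per tumor, at 0.00241 ± 0.00171 UMIs per 10000, against 0.639 ± 0.171 for macrophage-like and 0.758 ± 0.346 for T-like cells. Itga5, the α chain of the fibronectin receptor, had 29 UMIs in epithelial-like, 389 in macrophage-like cells and 13 among T-like cells. Itga9, the other subunit that binds the second motif, had 82, 724 and 2 UMIs in the same order. Of the 3 classes, Itga5 and Itga9 were highest in macrophage-like cells, and Itga4 was seen in both leukocyte classes. The macrophage-like minus epithelial-like difference was 7.72 ± 0.93 for Itga4, 6.98 ± 0.92 for Itga5 and 6.80 ± 0.81 for Itga9 on the log2 scale with 0.5 UMI added (adjusted p = 0.00011 for each, exact sign-flip test). These sizes depend on the 0.5 UMI, since 2, 1 and 3 tumors held no UMI of Itga4, Itga5 and Itga9 in epithelial-like cells. Itga4 did not differ detectably between macrophage-like and T-like cells (-0.13 ± 0.61, adjusted p = 0.434, exact test).

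The β subunits showed 3 different patterns. Itgb1, the shared partner of α4, α5, α9 and αv, was found in all 3 classes at 4.70 ± 0.37, 5.33 ± 0.84 and 4.35 ± 1.76 UMIs per 10000 in epithelial-like, macrophage-like and T-like cells. The macrophage-like level was higher by 0.17 ± 0.22 on the log2 scale (11 of 15 tumors, adjusted p = 0.0143, exact test), and this call was lost with cells thinned to 2500 UMIs (adjusted p = 0.26) and without the 3 T-rich tumors (0.114). Itgb5, which pairs with αv, was at 4.05 ± 0.90 in macrophage-like, 0.243 ± 0.097 in epithelial-like and 0.0223 ± 0.0228 in T-like cells, and these ranges did not overlap. Its macrophage-like minus epithelial-like difference was 4.11 ± 0.45 (log2). Itgb3 was at 0.194 ± 0.081 in epithelial-like, 0.118 ± 0.057 in T-like and 0.0198 ± 0.0467 in macrophage-like cells. Macrophage-like cells of all tumors together held 13 Itgb3 UMIs, 4 of them in the 23 cells of B20-4.1.1 pool 2 tumor 3, and 7 tumors had none. Its epithelial-like minus macrophage-like difference was 3.21 ± 1.33 (log2, 15 of 15 tumors, adjusted p = 0.00011, exact test).

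Cd44 was at 1.30 ± 0.51 UMIs per 10000 in macrophage-like, 0.538 ± 0.125 in epithelial-like and 0.559 ± 0.273 in T-like cells. Itgav, the α chain common to the αv integrins, was at 1.03 ± 0.22, 0.545 ± 0.160 and 0.525 ± 0.328 in the same order. Macrophage-like cells had the highest level of both genes, and the other 2 classes did not differ beyond their spread (Cd44 0.05 ± 0.74, adjusted p = 0.786; Itgav 0.32 ± 1.23, adjusted p = 0.379; epithelial-like minus T-like, log2, exact test). In the 3 T-rich tumors T-like cells had lower levels than in the other B20-4.1.1 tumors, at 0.214 to 0.251 against 0.429 to 0.777 for Cd44, at 0.083 to 0.139 against 0.324 to 0.836 for Itgav and at 1.30 to 1.59 against 3.13 to 6.37 for Itgb1.

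**Figure D1:**
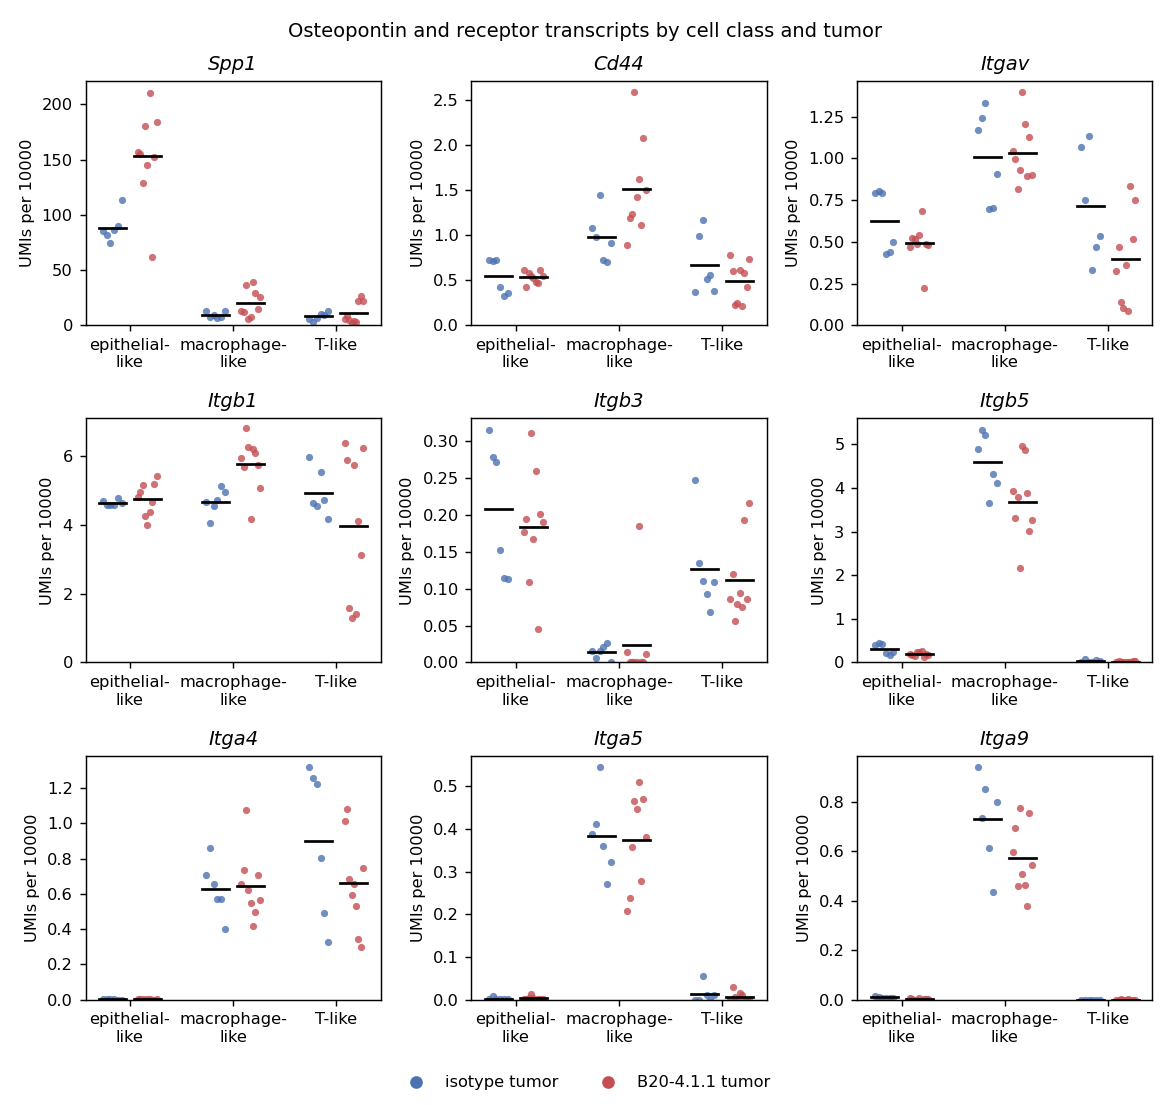
UMIs per 10000 (vertical axis, each panel with its own scale from 0) of the 9 genes in epithelial-like, macrophage-like and T-like cells; each point is 1 tumor (6 isotype, 9 B20-4.1.1) and each bar the mean of a group. Spp1 was highest in epithelial-like cells, Itgb5, Itga5 and Itga9 stood out in macrophage-like cells, and Itga4 was seen in both leukocyte classes.

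Pairs of subunits were also counted in the same cell. How often a pair is seen depends on the share of each gene, so these values are a description and no separate support. In thinned cells, Itgav and Itgb5 were both seen in 14.9% ± 5.0 of macrophage-like cells (SD, n = 15 tumors), 1.02% ± 0.65 of epithelial-like and 0.0784% ± 0.3038 of T-like cells. Itga4 with Itgb1 was seen in 10.4% ± 5.2 of macrophage-like, 6.53% ± 4.07 of T-like and 0.0262% ± 0.0460 of epithelial-like cells. Itga9 with Itgb1 was seen in 9.06% ± 4.42 of macrophage-like cells and in no T-like cell. Itgav with Itgb1 was the leading pair in both epithelial-like cells (9.25% ± 2.90) and macrophage-like cells (15.9% ± 5.9). It was seen in 5.04% ± 4.12 of T-like cells. The pair of Itgav with Itgb3 was seen in 1.04% ± 0.70 of epithelial-like cells. At least 1 of the 8 receptor genes had a UMI in 93.5% ± 3.1 of macrophage-like, 75.2% ± 3.6 of epithelial-like and 66.1% ± 17.7 of T-like cells. At 2500 UMIs per cell a gene with no UMI is not shown to be absent from that cell.

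The smaller classes were too few for tests over tumors, and their pooled levels carry exact Poisson intervals that cover counting error only. Neutrophil-like cells (195) had Cd44 at 3.15 UMIs per 10000 (95% interval 2.81 to 3.51), and 53.3% of them had a Cd44 UMI. Dendritic-like cells (57) had Itgb1 at 10.0 (9.05 to 11.0) and Itga4 at 5.64 (4.92 to 6.43). B-like cells (197) had Itga4 at 1.20 (0.968 to 1.46) and Itgb1 at 0.856 (0.665 to 1.09). Endothelial-like cells (53) had Itgb1 at 13.1 (12.2 to 14.1), Itgav at 1.89 (1.54 to 2.29) and Itga4 at 0.0183 (0.000464 to 0.102, from 1 UMI). Fibroblast-like cells (64) had Itgb5 at 1.27 (1.02 to 1.57), Itgb3 at 0.434 (0.291 to 0.623) and Itga5 at 0.434 (0.291 to 0.623), and no Itga4 UMI, which allows up to 0.0449 per 10000. Spp1 was at 42.7 in neutrophil-like, 31.5 in endothelial-like, 22.5 in B-like, 8.37 in fibroblast-like and 2.05 in dendritic-like cells. The first 3 of these lay above the macrophage-like mean of 16.02 over tumors. The endothelial-like level was 6.93 in 41 isotype cells and 131 in 12 B20-4.1.1 cells.

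Spp1 UMIs were found in every class, and droplets can hold free RNA from other cells. The share of cells with an Spp1 UMI was 51.8% in B-like cells (exact binomial 95% interval 44.6 to 58.9; median 3353 UMIs per cell before thinning), taken here as a class that should lack the gene. T-like cells had means of 55.5% ± 8.2 in isotype and 55.8% ± 15.6 in B20-4.1.1 tumors (median 4163 UMIs), both within that interval. Single B20-4.1.1 tumors lay on both sides of it, at 60.5% or more throughout pool 3 and 38.2% or less throughout pool 2. Pool 3 held no B-like cells. The means therefore do not decide whether the share in T-like cells is background. B-like cells had Spp1 at 22.5 UMIs per 10000 (exact Poisson interval 21.5 to 23.6), and 191 of the 197 came from B20-4.1.1 tumors, with 97, 32 and 56 in the 3 T-rich tumors, so that they give no usable background for isotype tumors. Macrophage-like cells had 61.4% ± 3.4 and 72.6% ± 10.2 (median 6375 UMIs), and epithelial-like cells 59.6% ± 4.7 and 70.4% ± 7.4 (median 8475 UMIs). These shares lay close together although the levels differed severalfold.

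To set Spp1 against epithelial RNA in the same droplets, its UMIs were divided by those of 10 epithelial marker genes. In isotype tumors this ratio was 1.23 ± 0.21 in epithelial-like, 1.37 ± 0.43 in T-like and 4.81 ± 1.99 in macrophage-like cells (n = 6). In B20-4.1.1 tumors it was 1.55 ± 0.44, 1.65 ± 0.56 and 10.5 ± 8.9 (n = 9). Macrophage-like cells had the higher ratio in 15 of 15 tumors, by 2.16 ± 1.19 on the log2 scale (range 0.43 to 5.04, adjusted p = 0.00012, exact sign-flip test). T-like cells had the ratio of epithelial-like cells within the spread (0.09 ± 0.67, higher in 7 of 15 tumors, adjusted p = 0.654), but with classes assigned cell by cell from markers theirs was higher by 0.71 (adjusted p = 0.0134). The macrophage-like ratio was above 19 in B20-4.1.1 pool 1 tumor 3, pool 2 tumor 3 and pool 3 tumor 1, and between 2.15 and 7.36 in the other 12 tumors. Its excess over epithelial-like cells did not differ detectably between treatments (1.86 ± 0.49 and 2.36 ± 1.48, p = 0.458, exact permutation test).

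**Figure D2:**
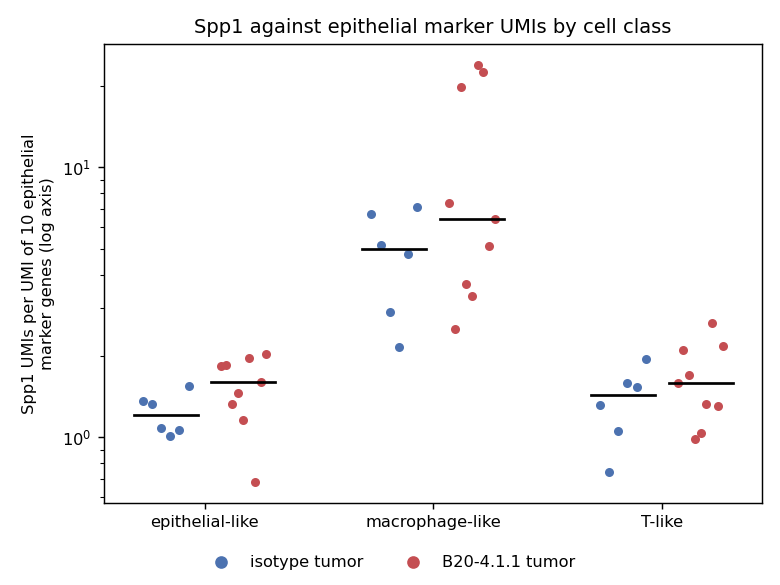
Spp1 UMIs divided by the summed UMIs of 10 epithelial marker genes (vertical axis, log scale) in each class; each point is 1 tumor and each bar the median of a group. Epithelial-like and T-like cells lay between 0.68 and 2.66, and macrophage-like cells between 2.15 and 24.0.

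Under B20-4.1.1, 1 of the 6 genes tested in epithelial-like cells was called higher and 1 lower, and both calls were lost without isotype pool 1. Spp1 rose 1.79-fold and Itgb5 fell to 0.656 of the isotype level. Cd44, Itgav, Itgb1 and Itgb3 did not pass the test, and Itga4, Itga5 and Itga9 had too few UMIs to be tested. Of all 12117 genes tested in these cells, 18.6% passed (9.38% higher and 9.22% lower), so 2 of 6 members stands against a broad difference between the groups. Tests were edgeR's quasi-likelihood test on UMIs summed per tumor, with Benjamini-Hochberg adjustment over all genes.

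Spp1 in epithelial-like cells was at 85.4, 82.0 and 74.3 UMIs per 10000 in the tumors of isotype pool 1, and at 86.0, 90.3 and 113 in those of isotype pool 2. It was at 157, 155 and 129 in B20-4.1.1 pool 1, at 180, 145 and 211 in pool 2 and at 61.8, 153 and 184 in pool 3. Of the 9 B20-4.1.1 tumors, 8 lay above every isotype tumor and 1, tumor 1 of pool 3, below all of them. The edgeR difference was 0.84 ± 0.19 (log2, SE, adjusted p = 0.00656). It was kept without the 3 T-rich tumors, but not with the pool as a random block (0.81, adjusted p = 0.165, limma-voom), with counts summed per pool (0.76, adjusted p = 0.363), or without isotype pool 1 (0.64, adjusted p = 0.146). In the same cells the 10 epithelial markers also summed higher, at 72.7 ± 10.4 in isotype and 99.8 ± 15.6 in B20-4.1.1 tumors. T-cell markers in these cells summed to 0.0666 to 0.143 in isotype and 0.128 to 0.534 in B20-4.1.1 tumors, with all 10 detected, and macrophage markers (all 11 detected) to 1.67 to 2.55 and 1.12 to 2.50. The makeup of the class differed too, since a cluster with little Spp1 (6.15 UMIs per 10000), led by Scgb2b27 and Car6, gave 1779 of 7557 isotype and 407 of 5029 B20-4.1.1 cells. The part of these markers and this cluster in the result was not tested.

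Itgb5 was at 0.395, 0.437 and 0.417 UMIs per 10000 in isotype pool 1, and at 0.210, 0.183 and 0.230 in isotype pool 2. It lay between 0.130 and 0.260 in the 9 B20-4.1.1 tumors. Isotype pool 1 stood apart, and isotype pool 2 lay inside the B20-4.1.1 range. The edgeR difference of -0.61 ± 0.17 (adjusted p = 0.0216) became -0.15 (adjusted p = 0.648) without isotype pool 1, and the call was also lost without B20-4.1.1 pool 1 (adjusted p = 0.0895) or pool 3 (0.103), with the pool as a random block (0.12) and with sums per pool (0.405).

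Cd44 had the same split between the control pools. It was at 0.715 to 0.728 UMIs per 10000 in isotype pool 1, 0.329 to 0.427 in pool 2, and 0.428 to 0.614 in the B20-4.1.1 tumors, which lay in between. With all tumors its difference was 0.07 ± 0.14 (adjusted p = 0.78, edgeR). Without isotype pool 1 it was 0.50 (adjusted p = 0.0261) and without isotype pool 2 it was -0.26 (adjusted p = 0.0352), so that either direction was called depending on the control pool. Itgav (1.75-fold), Itgb3 (2.27-fold) and Itgb5 (2.00-fold) were likewise higher in isotype pool 1 than in pool 2, beside 1.93-fold for Cd44, and the 3 tumors of each pool did not overlap for any of these 4 genes. Itgb1 was level at 4.61 and 4.66. The treatment difference of Itgav, not called with all tumors, was -0.56 (adjusted p = 0.0213) without isotype pool 2 and 0.058 without isotype pool 1. Among all genes tested in these cells, 64.6% had no overlap between the isotype pools, and 48.1% were higher in pool 1, which is the background for this split. In isotype pool 1 between 84.3% and 92.1% of multiplexing UMIs came from a tumor's own oligonucleotides, against 95.2% to 97.6% in pool 2. In the B20-4.1.1 tumors the values were 87.8% to 96.0%. Deposited cells had medians of 2192 to 2423 UMIs in the tumors of isotype pool 1 and 6034 to 6582 in pool 2. For kept cells the medians were 6880.5 to 7110 and 7949 to 8042. The part of these differences in the split was not tested.

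**Figure D3:**
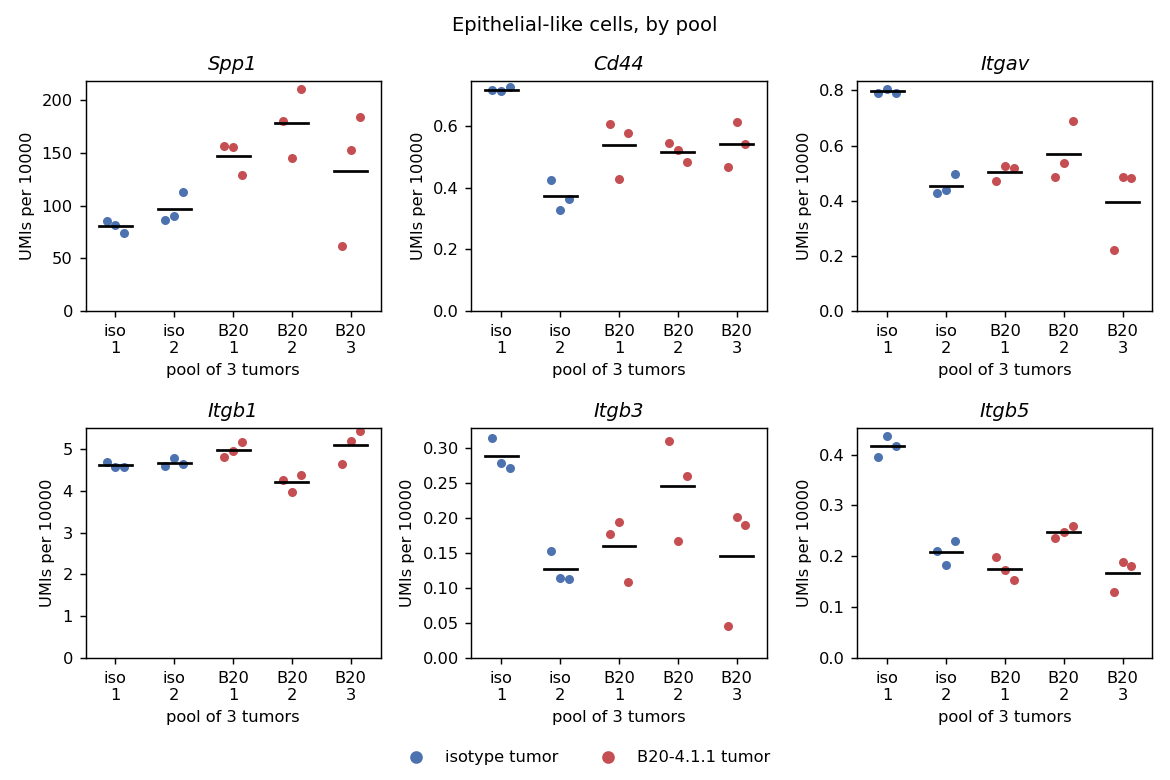
UMIs per 10000 in epithelial-like cells (vertical axes from 0) for the 6 genes that could be tested there, by pool; each point is 1 tumor and each bar the mean of the 3 tumors of a pool. For Cd44, Itgav, Itgb3 and Itgb5 the 3 tumors of isotype pool 1 lay above those of isotype pool 2, while Itgb1 was level; Spp1 was above every isotype tumor in 8 of 9 B20-4.1.1 tumors.

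Macrophage-like cells had the larger Spp1 difference but the wider spread. Spp1 was at 6.95 to 12.8 UMIs per 10000 in isotype tumors (median 8.47) and at 5.79 to 39.3 in B20-4.1.1 tumors (median 14.3), with 6 of 9 above every isotype tumor. The difference was 1.16 ± 0.33 (log2, adjusted p = 0.127, edgeR), and it passed in cells thinned to 2500 UMIs (1.53, adjusted p = 0.0162), with no filter on low counts (1.13, 0.0165) and without B20-4.1.1 pool 2 (1.25, 0.0339). Cd44 was at 0.705 to 1.44 in isotype and 0.891 to 2.59 in B20-4.1.1 tumors (0.60 ± 0.20, adjusted p = 0.202). Itgb1 was at 4.03 to 5.12 and 4.15 to 6.81 (0.35 ± 0.12, adjusted p = 0.207), and passed without isotype pool 2 (0.48, adjusted p = 0.0435). Of the 8 genes tested in these cells 0 passed, against 0.53% of 6035 genes (0.431% higher and 0.0994% lower), and 4 had an unadjusted p under 0.05 by edgeR (Spp1, Cd44, Itgb1 and Itga9) and 3 by DESeq2. Neutrophil markers in macrophage-like cells summed to 0.515 to 43.7 per 10000 in isotype and 0.405 to 1.33 in B20-4.1.1 tumors (9 of 9 markers detected), and epithelial markers to 1.46 to 3.22 and 1.29 to 4.96 (10 of 10 detected); their part was not tested.

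In T-like cells 0 of 5 tested genes passed, and 0 had an unadjusted p under 0.05 by edgeR or DESeq2, against 0.0594% of 6737 genes called. Different clusters held most of the class in the 2 groups. A cluster led by Gzmb, Xcl1 and other genes of cytotoxic lymphocytes, which natural killer cells share, gave 597 of 738 isotype cells, and a cluster led by Lef1 and Dapl1 gave 1563 of 2190 B20-4.1.1 cells. A Cd3 transcript (Cd3d, Cd3e or Cd3g) was seen in 88.2% of cells of the first cluster and 99.8% of the second. Over all tumors Itgav was at 0.534 UMIs per 10000 in the first and 0.124 in the second, Itgb1 at 5.25 and 1.27, and Spp1 at 10.1 and 3.35. Only 80 cells of the second cluster were from isotype tumors, so its pooled values are mostly those of B20-4.1.1 cells. In isotype cells alone the 2 clusters were closer for Itgav (0.606 and 0.577) and Itgb1 (4.99 and 4.26), but not for Spp1 (9.40 and 2.56). Within the first cluster Itgav was at 0.606 in isotype and 0.472 in B20-4.1.1 cells pooled over tumors, and within the second at 0.577 and 0.105. Itgb1 was at 4.99 and 5.47 within the first cluster and at 4.26 and 1.14 within the second. Treatment values for T-like cells therefore hold both this difference in makeup and differences within clusters, and the part of each was not tested. Itgav was at 0.329 to 1.14 UMIs per 10000 in isotype and 0.0826 to 0.836 in B20-4.1.1 tumors (-0.84 ± 0.44, adjusted p = 0.38). Its difference was -0.24 without the T-rich tumors and -0.28 without isotype pool 1, and was called without B20-4.1.1 pool 3 (-1.46, adjusted p = 0.0436). Itga4 was at 0.326 to 1.32 and 0.300 to 1.08 (-0.22 ± 0.29, adjusted p = 0.771). Spp1 was at 21.8 to 26.3 in the 3 tumors of B20-4.1.1 pool 3 and at 2.10 to 8.38 in the other 6. Its difference turned from 0.52 to -0.66 without that pool, neither being called. The treatment difference was not shown to differ between classes for any gene (27 comparisons, smallest adjusted p = 0.209, exact permutation test; 5 unadjusted p under 0.05).

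Shares of cells with a UMI gave no call after adjustment over 27 comparisons, with 5 unadjusted p under 0.05 (exact permutation test; the smallest p possible is 0.0002). By this exact permutation test they were Spp1 in epithelial-like cells (higher by 10.9 percentage points, 8 of 9 tumors above the isotype mean, p = 0.00959, adjusted p = 0.148), Spp1 in macrophage-like cells (11.2 points, adjusted p = 0.148), Cd44 in macrophage-like cells (9.21 points, adjusted p = 0.159), Itgb5 in macrophage-like cells (54.1% ± 9.3 against 66.1% ± 7.4, adjusted p = 0.148) and Itgav in T-like cells (7.22% ± 4.92 against 15.6% ± 7.0, adjusted p = 0.148).

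**Figure D4:**
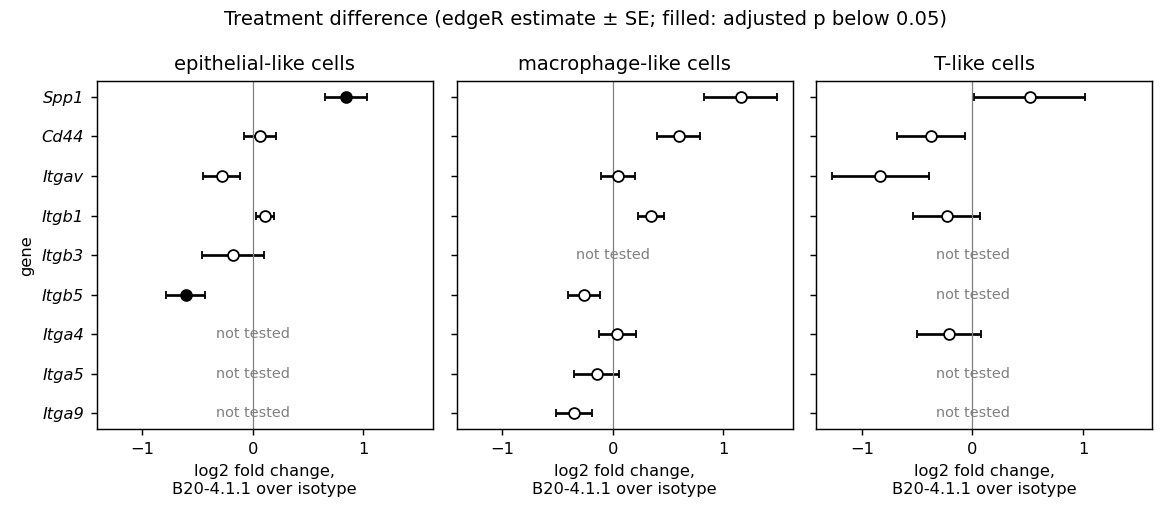
Log2 fold change of B20-4.1.1 over isotype (horizontal axis) for the 9 genes in each class, with the edgeR standard error; filled points have an adjusted p under 0.05 and genes with too few UMIs are marked as not tested. The filled points are Spp1 (0.84) and Itgb5 (-0.61) in epithelial-like cells.

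Within epithelial-like cells Spp1 was very unevenly spread. After thinning, the median cell had 1 Spp1 UMI in each isotype tumor and 1 to 13 in B20-4.1.1 tumors, while the 90th percentile averaged 88.0 ± 18.1 and 137 ± 32.3 UMIs. The tenth of cells with most Spp1 held 65.1% ± 4.1 of a tumor's epithelial-like Spp1 UMIs under isotype and 53.6% ± 8.8 under B20-4.1.1. Cells with at least 10 Spp1 UMIs were 32.1% ± 3.1 and 44.7% ± 9.2 of the epithelial-like cells.

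Where these cells lay was asked with 8 lists of state genes. A state is the top 10% of epithelial-like cells by the mean score of its list, so it is a range of a score and not a cell type. Cells tied at the threshold were left out, so some states fell short of 10%. The cycling state held 1146 cells, the Krt14 state 1183 and the squamous state 965, against 1259 in the interferon state. Each state was compared with the other epithelial-like cells of the same tumor, in tumors with at least 20 cells of both (exact sign-flip test, adjusted over 72 comparisons of 9 genes in 8 states). The states overlap, since 6950 cells were in any state and 2154 of these in 2 or more, so the 8 comparisons are not independent. Spp1 passed in all 8 states, higher in 3 and lower in 5. The difference was largest upward in the Krt14 state as listed (Krt14, Krt5, Krt17, Krt15 and Slpi, basal keratins and a protease inhibitor), though not with Slpi left out of that list, and largest downward in the state of Scgb2b27, Aqp5 and Col9a1.

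In Krt14-state cells Spp1 was at 97.6 to 500 UMIs per 10000 (median 240, 14 tumors), against 58.3 to 163 (median 109) in the other cells. It was higher in 14 of 14 tumors, by 1.01 ± 0.43 (log2, SD, adjusted p = 0.0011). Slpi is a leading gene of the cluster richest in Spp1, which held 24.0% of Krt14-state cells. With the list scored without Slpi the difference was 0.32 (adjusted p = 0.038), below the 1.01 found with it and below the differences in the secretory and interferon states that follow. In the secretory state of milk protein genes (Csn2, Wap, Lalba and others) Spp1 was at 102 to 231 against 52.7 to 182 (0.63 ± 0.49, 10 of 11 tumors, adjusted p = 0.00586). In the interferon-response state (Isg15, Ifit1 and others) it was higher by 0.38 ± 0.37 (12 of 14 tumors, adjusted p = 0.00938), a call lost with the top 5% of cells (0.30, adjusted p = 0.0686).

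In the Scgb2b27 state Spp1 was at 7.45 to 52.4 UMIs per 10000, below 63.5 to 191 in the other cells with no overlap (-2.48 ± 0.77, 12 of 12 tumors, adjusted p = 0.00234), a call lost with the top 5% of cells, in the tumors that still had 20 of them (-3.59, adjusted p = 0.0592). In cycling cells it was at 4.48 to 120 against 65.9 to 190 (-1.65 ± 1.15, 12 of 12 tumors, adjusted p = 0.00234). In the squamous state (Sprr1a, Klk6, Krt6a and others) it was lower by 1.00 ± 0.77 (12 of 12 tumors, adjusted p = 0.00234), and in the lipogenic state (Fasn, Scd1 and others) by 0.61 ± 0.55 (11 of 13 tumors, adjusted p = 0.00651). In the hypoxia state (Slc2a1, Car9, Vegfa, Ndrg1 and others) Spp1 was at 27.2 to 188 against 64.2 to 215 in the other cells. It was thus lower in hypoxia-state cells in 13 of 14 tumors, by 0.67 ± 0.56 (adjusted p = 0.00293). The cycling score had 11440 of 12586 cells within 0.1 SD of its threshold, so its edge is weakly defined.

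Cd44 followed a different order. It was higher in the hypoxia state in 14 of 14 tumors (0.63 ± 0.24, adjusted p = 0.0011), at 0.483 to 1.10 UMIs per 10000 (median 0.769) against 0.325 to 0.707 (median 0.504) in the other cells. It was higher in the squamous state in 12 of 12 tumors (0.74 ± 0.22, adjusted p = 0.00234) and in the Krt14 state in 14 of 14 (0.89 ± 0.51, adjusted p = 0.0011). Ligand and receptor were thus both higher in Krt14-state cells, and in the hypoxia and squamous states Cd44 was higher and Spp1 lower. None of these 3 Cd44 calls was lost under any alternative run, the removal of each pool included. In the other 5 states Cd44 did not pass.

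Among the integrin subunits, Itgb1 was higher in the Krt14 state (0.28 ± 0.28, 12 of 14 tumors, adjusted p = 0.00293). Its differences in the hypoxia (0.13 ± 0.16, adjusted p = 0.0202) and squamous (0.15 ± 0.18, adjusted p = 0.0342) states were small and were lost without a pool. Itgav was lower in cycling cells (-0.55 ± 0.29, 12 of 12 tumors, adjusted p = 0.00234; 0.0561 with thinned cells) and in the squamous state (-0.31 ± 0.32, adjusted p = 0.0154; 0.333 with thinned cells). Itgb3 was lower in the squamous state (-0.94 ± 0.91, 11 of 12 tumors, adjusted p = 0.0032). Itgb5 was higher in the Scgb2b27 state (0.47 ± 0.58, adjusted p = 0.0342), where Spp1 was lowest, but this was lost without any 1 of B20-4.1.1 pools 1 and 2 or either isotype pool. Itgb3 and Itgb5 were also lower in cycling cells (adjusted p = 0.0301 and 0.0398), calls lost with thinned cells (0.706 and 0.954). Itga4, Itga5 and Itga9 had 1 to 9 UMIs in the cells of a state over all tumors, where the added 0.5 UMI sets the value, and no difference is given for them.

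**Figure D5:**
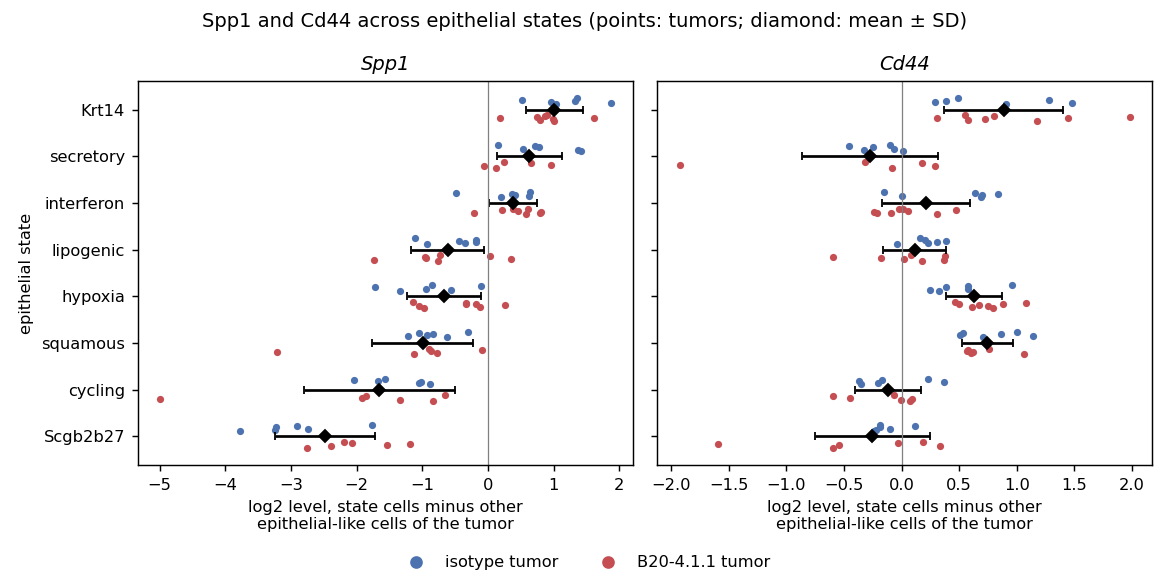
Log2 difference of Spp1 (left) and Cd44 (right) between the cells of a state and the other epithelial-like cells of the same tumor (horizontal axis), for 8 states (vertical axis, ordered by the Spp1 difference); points are tumors, diamonds the mean and bars the SD. Spp1 was lower and Cd44 higher in the hypoxia and squamous states, and both were higher in the Krt14 state.

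The Spp1 difference between state and other cells did not differ between treatments after adjustment over the 8 states (0 calls, 1 unadjusted p under 0.05, exact permutation test). That 1 was the Scgb2b27 state, at -2.94 ± 0.68 in isotype and -2.02 ± 0.57 in B20-4.1.1 tumors (p = 0.0325, adjusted p = 0.26, exact permutation test). With states set as the top 10% within each tumor it passed (difference 1.68, adjusted p = 0.0233). In hypoxia-state cells Spp1 itself was at 51.4 ± 21.3 UMIs per 10000 in isotype and 116 ± 49.6 in B20-4.1.1 tumors, while the other epithelial-like cells were at a mean of 91.2 and 156. Hypoxia-state cells were 6.33% ± 1.15 of the epithelial-like cells under isotype and 14.9% ± 2.97 under B20-4.1.1. Across tumors, Spp1 and the mean log2 level of the hypoxia genes showed no relation that passed in either group. Pearson's r was -0.01 (p = 0.981) and Spearman's rho -0.26 (p = 0.658) in the 6 isotype tumors, and r was -0.51 (p = 0.16) and rho -0.35 (p = 0.356) in the 9 B20-4.1.1 tumors (permutation tests). Adjusted over the 2 groups, p was 0.981 and 0.32 for r and 0.658 in both for rho. Without the 2 tumors farthest from the median score, r was 0.66 (n = 4, p = 0.125) and -0.12 (n = 7, p = 0.798; permutation tests).

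By cluster, 37.7% of epithelial-like Spp1 UMIs lay in 1 cluster of 1500 cells (11.9% of the class), which Spp1, Slpi, Wisp2 and Wfdc3 led although Spp1 had not been used to form it. This is a description, since the cells were grouped by genes that vary with Spp1. There Spp1 was at 249 to 596 UMIs per 10000 in the 12 tumors with at least 20 such cells. The cluster was 0.181% to 0.751% of epithelial-like cells in the tumors of isotype pool 1, 12.3% to 14.6% in isotype pool 2 and 9.64% to 28.8% in B20-4.1.1 tumors. Inside it Spp1 was at 376 ± 37.5 in isotype (n = 3) and 417 ± 96.7 in B20-4.1.1 tumors (n = 9), and outside it at 70.4 ± 11.7 (n = 6) and 95.7 ± 23.6 (n = 9). In the cluster led by Scgb2b27 and Car6 (2186 cells) Spp1 was at 6.15.

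The genes nearest to Spp1 across tumors in epithelial-like cells, by Pearson's r of log2 CPM (counts scaled to library size) centred within each pool, were Lipa (r = 0.95), Golim4 (0.94), Arhgef6 (0.94) and Tgfb3 (0.94), among 2912 genes with a mean of at least 50 CPM. Nearest to Cd44 were Picalm (0.85), Thap2 (0.85), Zfp503 (0.82), Strn3 (0.81) and Brd8 (0.80). These are descriptions over 15 tumors in 5 pools that share libraries and depth. Without the centring, r with Spp1 for these 4 genes was 0.15 to 0.53.

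Of 80 further genes of the osteopontin pathway, 54 could be tested in epithelial-like cells, and 9 were called under B20-4.1.1, 5 higher and 4 lower, beside 18.6% of all genes tested, so that this count says nothing particular of the list. Their median log2 change was 0.09, against -0.01 over all genes tested. With sums per pool 0 of these 9 calls were kept, with the pool as a random block 2 (Ctgf and Cd47), without isotype pool 1 3 (Ctgf, Cd47 and Msn) and without B20-4.1.1 pool 2 6 (all but Itga8, Itga2b and Ptk2). Among other ligands of the same integrins, Ctgf rose by 1.94 ± 0.25 (adjusted p = 0.000236), from 0.109 to 0.210 UMIs per 10000 in isotype to 0.277 to 0.860 in B20-4.1.1 tumors with no overlap. Thbs2, a thrombospondin, fell by 1.44 ± 0.33 (adjusted p = 0.00769, edgeR), from between 0.0208 and 0.0446 in isotype tumors to at most 0.0198. It had only 0 to 47 UMIs per tumor. Of other integrin subunits 3 of 9 tested passed. Itga8, whose product with β1 also binds RGD, fell by 0.55 ± 0.15 (adjusted p = 0.0159, edgeR). Itga1, a collagen receptor chain, fell by 1.00 ± 0.25 (adjusted p = 0.0104, edgeR) at 1 to 159 UMIs per tumor. Itga2b, the platelet chain, rose by 0.54 ± 0.16 (adjusted p = 0.0273, edgeR) at 9 to 94 UMIs per tumor. The Itga2b call was lost in 10 of the 17 alternatives run, and those of Itga8 and Itga1 in 4 each. Of 20 signalling genes Cd47, which associates with αvβ3, rose by 0.54 ± 0.08 (adjusted p = 0.000658), Msn, encoding moesin, which links CD44 to actin, rose by 0.47 ± 0.08 (adjusted p = 0.00169), and Ptk2, encoding focal adhesion kinase, fell by 0.31 ± 0.09 (adjusted p = 0.0253). Ctsb, the lysosomal protease cathepsin B, rose by 0.37 ± 0.09 (adjusted p = 0.00929), 1 of 4 proteases tested. Of 5 hyaluronan genes 0 passed by edgeR (1 unadjusted p under 0.05, Has2, a hyaluronan synthase, which DESeq2 called), and of 9 regulators 0 passed by either tool (2 unadjusted, Fos and Myc).

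In macrophage-like cells 1 of 40 tested pathway genes passed, beside 0.53% of all genes tested. Fn1, encoding fibronectin, the ligand of α5β1, rose by 1.33 ± 0.24 (adjusted p = 0.0235, edgeR), from 1.27 to 3.11 UMIs per 10000 in isotype to 2.59 to 8.56 in B20-4.1.1 tumors, with all 9 above the isotype mean. This call was lost in 8 of the 16 alternatives run, among them with unnamed clusters placed in their best class (0.33, adjusted p = 0.841), with the cell-by-cell marker gate (0.94, 0.33), with the pool as a random block (1.29, 0.32), without isotype pool 1 (1.44, 0.344) and without the T-rich tumors (1.34, 0.0763). The receptor gene of its α chain, Itga5, was at 0.271 to 0.545 and 0.209 to 0.509 and did not pass (-0.15 ± 0.20, adjusted p = 0.814). In T-like cells 0 of 31 pathway genes passed by edgeR or DESeq2 (4 and 2 with an unadjusted p under 0.05).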

How the data were processed

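Per the labels, viable cells were sorted, tumors were marked with multiplexing oligonucleotides, and 3 tumors were pooled per library. The authors counted UMIs per gene and cell with Cell Ranger (6.1.2 in the matrix headers) on mm10 and deposited 1 matrix of raw counts for each tumor. The deposited counts include 12 multiplexing features, which were kept out of gene totals. The labels name no high or low hypoxia class, and those classes were not compared here.

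Cells with 2500 to 27500 UMIs and at most 20% mitochondrial UMIs were kept. No barcode was shared by 2 tumors of a pool, and 94 barcodes occurred in 2 or more pools. Cells were clustered with Leiden (scanpy 1.11.5) without the 9 genes and the 80 further pathway genes. Of 24 clusters, 4 (2035 cells) met no naming rule and stayed unnamed. UMIs were summed per tumor and class, where at least 20 cells were present, and tested with edgeR 4.0.16 (quasi-likelihood, TMM, Benjamini-Hochberg over all genes). Limma 3.58.1 and DESeq2 1.42.0 served as alternatives. Classes, shares and states were compared with exact permutation or sign-flip tests over tumors, two-sided, after adding 0.5 UMI. Scrublet marked 12 kept cells (0.0614%), too few to have worked, so no doublets were removed. The edgeR step was tested on simulated counts that held no pool effect, so that test does not cover differences between pools. Named were the 9 genes, up to 4 genes per pathway list and class with the smallest adjusted p under 0.05, and the 5 genes with the highest correlation with Spp1 and with Cd44. Of these, 1 gene is not reported here. Has2, Fos and Myc were named after their values were seen. The 9 genes and the lists were chosen with earlier results of these data known. Intervals cover counting error only. UMI levels were not compared between genes.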

Additional observations from a re-analysis of the deposited data

Results flagged for a closer look

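Of 39 groups of tumors examined, 2 had 1 tumor far from the others by Dixon's criterion, where chance gives about 1 group in 20. In epithelial-like cells, Itgav in B20-4.1.1 pool 3 tumor 1 was the lowest of its group at 0.222 UMIs per 10000, with the nearest tumor at 0.470. The same tumor had the lowest epithelial-like Spp1 (61.8) and Itgb3 (0.0459). In macrophage-like cells, Itga4 in B20-4.1.1 pool 1 tumor 3 was the highest at 1.08 UMIs per 10000, with the nearest at 0.736, and rested on 21 UMIs in 20 cells.

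The 4 unnamed clusters entered no comparison of the report, and all held Spp1 and Cd44 UMIs. A cluster led by Car6, Scgb2b27 and Thrsp (1133 cells) had Spp1 at 10.9 and Cd44 at 0.188 UMIs per 10000. A cluster led by Retnla, Ccl6 and Lyz1 (333 cells) had Spp1 at 4.84 and Cd44 at 3.75. A cluster led by Gzmb, Klra5 and Xcl1 (308 cells) had Spp1 at 96.7 and Cd44 at 0.527. A cluster led by Ccdc152, Ccl3 and Mpeg1 (261 cells) had Spp1 at 51.3 and Cd44 at 0.934.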

How the results depend on the processing

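The counts of genes called depended on the control pool. Genes called in epithelial-like cells numbered 2253, against 1306 in cells thinned to 2500 UMIs, 158 with the pool as a random block, 0 with sums per pool, and 347 (without isotype pool 1) to 5087 (without isotype pool 2) with a pool left out. In macrophage-like cells 32 genes were called, against 67 with DESeq2, 60 thinned, 96 with no filter on low counts, 1 with sums per pool or with unnamed clusters placed in their best class, 0 with the cell-by-cell marker gate, the random block, the top 5% of doublet scores removed or the T-rich tumors removed, and 0 to 489 with a pool left out. In T-like cells 4 were called, against 48 with DESeq2, 1 with a minimum of 1000 UMIs or the gate, 2 without the T-rich tumors, 0 thinned, with no filter, with the random block, with sums per pool or with the top 5% of doublet scores removed, and 0 to 363 with a pool left out. The cause was not tested.

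Treatment differences that turned with a pool left out ranged, on the log2 scale, in epithelial-like cells from -0.56 to 0.058 for Itgav, -0.60 to 0.40 for Itgb3 and -0.26 to 0.50 for Cd44; in macrophage-like cells from -0.14 to 0.36 for Itga4, -0.34 to 0.13 for Itga5 and -0.17 to 0.41 for Itgav; and in T-like cells from -0.75 to 0.40 for Itga4, -0.66 to 1.19 for Spp1 and -0.75 to 0.0056 for Cd44. Itga4 became -0.097 in macrophage-like cells with the gate and 0.023 in T-like cells with the random block. Without the T-rich tumors, Cd44 became 0.031 and Itgb1 0.15 in T-like cells. Not thinned, the share of cells with a UMI gave 1 call, and the Cd44 share in epithelial-like cells differed by 2.11 percentage points, with a range of -3.64 to 3.41 when a pool was left out; for Itgb5 that range was -4.68 to 0.13.

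Between epithelial-like and T-like cells, Itga9 became 0.069 with 0.1 per 10000 added. Without the T-rich tumors Cd44 became -0.24, Itgav -0.19 and Itgb1 -0.082, and with at least 50 cells Cd44 became -0.042. With a pool left out Cd44 ranged from -0.11 to 0.16 and Itgav from -0.081 to 0.62. Between macrophage-like and T-like cells, Itgb1 became -0.042 with at least 50 cells, and Itga4 ranged from -0.27 to 0.035 with a pool left out. The Spp1 to marker ratio in T-like cells became 0.71 with the gate and -0.12 without Krt8 and Krt18, and ranged from -0.032 to 0.22. The treatment difference in the Spp1 contrast of states gave 1 call with states set within each tumor. Correlation with the hypoxia score in isotype tumors became 0.66 without 2 tumors.

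The alternatives on doublet scores, T-rich tumors, Slpi and the Scgb2b27 and Thrsp cluster were chosen after seeing the data. The planned removal of called doublets was not run, since 12 were called. Leaving out an isotype pool leaves 3 isotype tumors, too few for the treatment difference between states, which then has no value. No paired analysis was possible because pool numbers follow accession order and mark nothing shared between treatments. For single genes, 770 alternative values kept their direction and side of the threshold, 58 lost a call, 11 gained one and 30 turned. For the headline counts and tests, 63 alternative values were judged the same, 35 counts moved, 4 values turned and 1 test gained a call.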
